A study of Sus scrofa with 24 samples.

Results

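The 8 genes described here are ALKBH6, ATG4D, DCTPP1, GPAA1, PARM1, SLC25A44, SPMI and SRI, measured by 13 probes in pooled day 30 pig embryos. They were chosen by their measured ratios between treated and control pools, which had the same sign in all 12 biological replicates, so their signs and sizes are a description and carry no test. The array table held 11906 gene symbols, of which 6529 were measured in all 12 replicates. Of these, 11 genes (0.168%) met the sign rule, 9 with positive ratios (0.138%) and 2 with negative ratios (0.0306%). The 8 genes comprise 6 of the positive ones and both negative ones. The 3 others were BMP8A, a bone morphogenetic protein, RPL35, a protein of the large ribosomal subunit, and LOC100625691, which has no name in the tables used.

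The dams were primiparous, having borne a first litter. Of the sows, 6 were controls, called C28 in the design, and 3 sows each followed the strategies that the labels call IS21FE and IS21SE without spelling the letters out. Both strategies combine stimulation of oestrus during lactation, by intermittent suckling, with mating. From every sow 3 female embryos and 3 male embryos were pooled apart, which gave 24 pools of 3 embryos, so single embryos were not measured. On each array a treated pool was set against a same-sex control pool. The 4 groups were female IS21FE, female IS21SE, male IS21FE and male IS21SE, each against control with 3 biological replicates, and each replicate was hybridised on 2 arrays with the dyes exchanged. Each sow gave a female and a male pool, so the sexes are not independent sets of dams.

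The members have unrelated known roles. ALKBH6 and DCTPP1 belong to families that look after nucleic acids and nucleotides, and ATG4D acts in autophagy, the breakdown of cell contents in vesicles. GPAA1 works in the attachment of glycosylphosphatidylinositol (GPI) anchors, the lipids that hold many proteins on the cell surface, and SLC25A44 carries amino acids into mitochondria. SPMI belongs to the spermadhesins, secreted proteins known chiefly from boar seminal plasma, PARM1 is a mucin-like membrane protein and SRI is a calcium sensor.

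All values are log2 ratios from the deposited table. Ratios of arrays that carried control RNA in the Cy5 channel were multiplied by -1, and means were taken over the 2 arrays of a replicate and then over the probes of a gene. The sources used here do not state whether the columns hold Cy5 over Cy3. A positive ratio therefore means more RNA in the treated pool if they do, and less if they hold the opposite. In bulk pools, fewer cells of a type and less RNA per cell cannot be told apart. Ratios show how a gene differs between pools but not its level, so the presence of marker genes cannot be checked.

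The arrays differed in ways that touch every ratio below. An array gave values for 31722 to 39435 of 43749 probes. The SD over probes was 0.620 to 0.890 for female arrays but 0.937 to 1.33 for male arrays. As deposited, the 2 dye-exchanged arrays of a replicate correlated below 0, the direction a dye exchange gives, in 6 of 6 male pairs but in 1 of 6 female pairs (Spearman's rho from -0.298 to 0.324 across 18481 probes). The turn of the sign is thus less certain for the female arrays. In addition, 3 female arrays with the treated RNA in Cy5 (IS21FE replicates 1 and 3 and IS21SE replicate 2) resembled each other, with rho from 0.559 to 0.614. With every other array their rho was at most 0.310, while other pairs of arrays reached 0.603. Values with and without these 3 arrays are given for each gene. Without them, those 3 replicates rest on their control-in-Cy5 array alone, so a dye effect is not averaged out there.

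Few genes on the array kept a sign. Among the 6529 genes the commonest outcome was 7 of 12 replicates of a sign, found for 2277 genes, and 118 genes had 11 of 12. When no array was turned, 349 genes (5.35%) had the same sign in all 12 replicates, and none of the 8 members was among them.

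**Figure D1:**
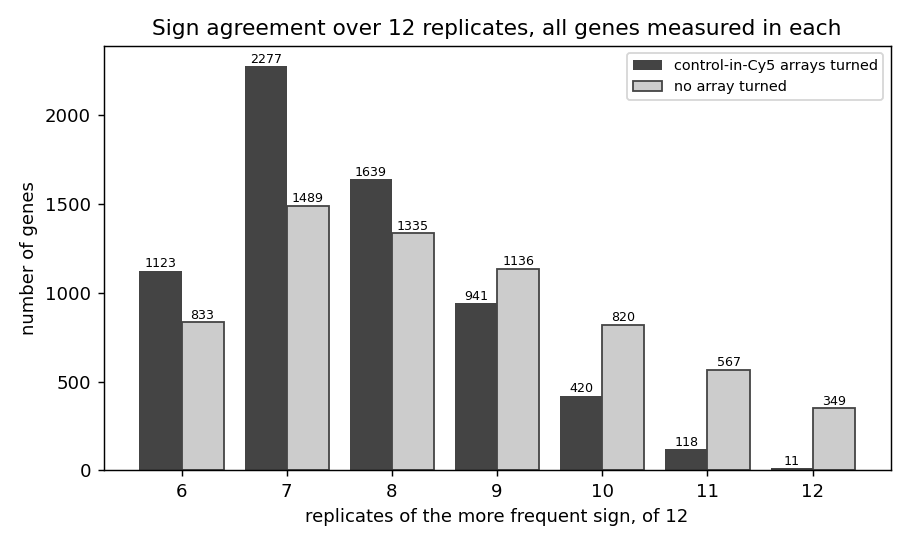
Number of genes (y axis) by how many of the 12 replicates shared the more frequent sign (x axis), with the control-in-Cy5 arrays turned (dark bars) and with no array turned (light bars). The turned arrays gave 11 genes with 12 of 12, and the arrays as deposited gave 349.

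The ratios of the members were small. Absolute means over 12 replicates ran from 0.11 for DCTPP1 to 0.37 for ALKBH6, beside a median of 0.072 over the 6529 genes. The SDs between replicates ran from 0.071 for ATG4D to 0.27 for ALKBH6, beside a median of 0.26 over all genes (interquartile range 0.18 to 0.39). Both ends of that spread met the rule: ALKBH6 with a large mean and an SD near the median, and ATG4D and DCTPP1 with small means and SDs that only 0.260% and 0.306% of genes undercut.

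**Figure D2:**
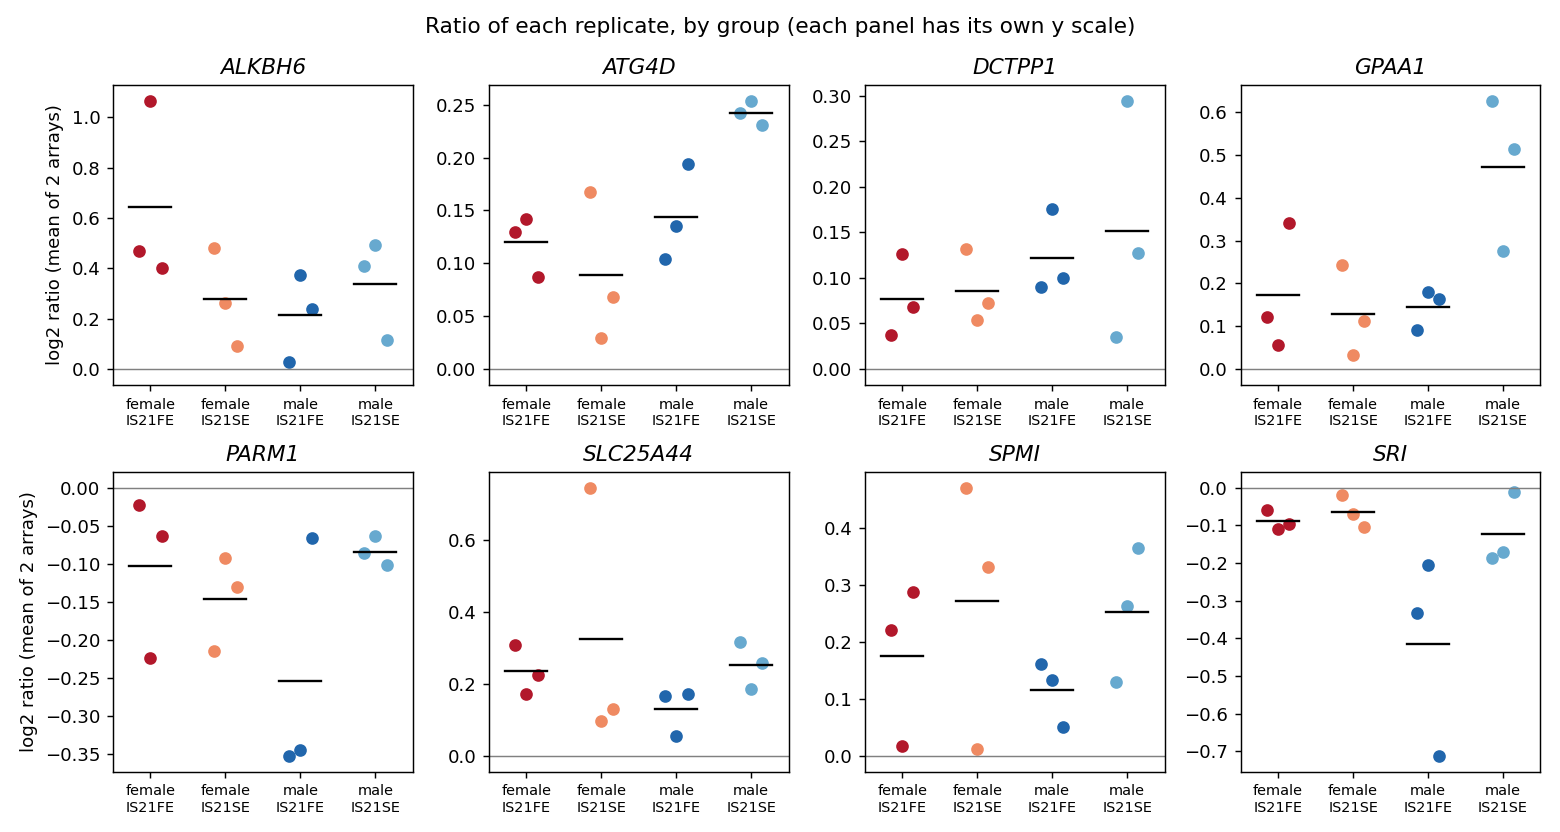
Log2 ratio of each replicate (y axis, each panel on its own scale) in the 4 groups (x axis); points are replicates, each the mean of 2 arrays, bars are group means and the grey line is 0. All 12 points of ALKBH6, ATG4D, DCTPP1, GPAA1, SLC25A44 and SPMI lie above 0 and all points of PARM1 and SRI below it, many of them close to 0.

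ALKBH6 is a member of the AlkB family of iron- and 2-oxoglutarate-dependent dioxygenases, enzymes that remove alkyl groups from nucleic acids or proteins. Its 1 probe had ratios of 0.47, 1.06 and 0.40 in female IS21FE pools and of 0.48, 0.26 and 0.091 in female IS21SE pools. In male IS21FE pools the ratios were 0.026, 0.37 and 0.24, and in male IS21SE pools they were 0.41, 0.49 and 0.12. The value of 1.06 stood apart from the other 11, the 4 groups overlapped, and male IS21FE replicate 1 was nearest to 0. The mean was 0.37 ± 0.27 (SD, n = 12), a fold of 1.29, and 1.09% of the 6529 genes had a larger absolute mean. The sign was positive on 12 of 12 treated-in-Cy5 arrays but on 8 of 12 with the control RNA in Cy5, with means of 0.54 and 0.19. On the 2 arrays of the replicate at 1.06 the ratios were 0.60 and 1.53. Without the 3 similar arrays the mean was 0.22 ± 0.39.

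DCTPP1 is the dCTP pyrophosphatase, which hydrolyses dCTP and some modified analogues and so cleans the nucleotide pool. Its 1 probe had ratios of 0.037, 0.13 and 0.068 in female IS21FE pools and of 0.13, 0.054 and 0.073 in female IS21SE pools. Male IS21FE pools had 0.090, 0.18 and 0.10, and male IS21SE pools had 0.035, 0.29 and 0.13. The groups overlapped, and male IS21SE held both the lowest and the highest replicate. The mean of 0.11 ± 0.072 (SD, n = 12), a fold of 1.08, was the smallest of the 8 genes, and 31.6% of genes had a larger absolute mean. DCTPP1 also had the least agreement between orientations: 11 of 12 arrays were positive with the treated RNA in Cy5 and 5 of 12 with the control RNA in Cy5, with means of 0.25 and -0.029. In 4 of 12 replicates both arrays were positive. That number equals the median of all genes, so the shared sign of DCTPP1 rested on arrays of opposite sign in the other 8 replicates. With the 3 similar arrays left out, the mean was 0.032 ± 0.19, and replicates of both signs appeared.

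ATG4D is one of the ATG4 cysteine proteases, which cut the ATG8 proteins of the autophagosome and free them from lipid. Its 3 probes gave a mean of 0.13, 0.14 and 0.087 in female IS21FE pools and of 0.17, 0.030 and 0.068 in female IS21SE pools. The male IS21FE pools had 0.10, 0.13 and 0.19, and the male IS21SE pools 0.24, 0.25 and 0.23. The 3 male IS21SE replicates lay above the other 9 replicates, and the other groups overlapped. The mean was 0.15 ± 0.071 (SD, n = 12), a fold of 1.11. No single probe kept the sign: each of the 3 was positive in 10 of 12 replicates, with means of 0.087, 0.16 and 0.20, and with the median of the probes ATG4D no longer met the rule. All 12 treated-in-Cy5 arrays were positive. Among control-in-Cy5 arrays, 6 of 6 male but 1 of 6 female arrays were positive after the turn. Its mean was 0.078 ± 0.18 when the 3 similar arrays were left out.

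GPAA1 is a subunit of the GPI transamidase, the complex that joins a finished GPI anchor to a protein. Female IS21FE pools had ratios of 0.12, 0.055 and 0.34, and female IS21SE pools 0.24, 0.033 and 0.11. Male IS21FE pools had 0.092, 0.18 and 0.16, and male IS21SE pools had 0.63, 0.28 and 0.51. The male IS21SE pools held the 2 highest replicates, but their lowest lay under female IS21FE replicate 3. The mean was 0.23 ± 0.18 (SD, n = 12), a fold of 1.17. The 3 probes gave almost the same mean (0.22, 0.23 and 0.24), and each was positive in 11 of 12 replicates, with a different exception for each probe. By orientation, 12 of 12 arrays were positive with the treated RNA in Cy5 (mean 0.40) and 7 of 12 with the control RNA in Cy5 (mean 0.059), of which 2 of 6 were female. Leaving the 3 similar arrays out gave a mean of 0.15 ± 0.28.

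SLC25A44 is a carrier of the inner mitochondrial membrane that takes up branched-chain amino acids. Its 1 probe had ratios of 0.31, 0.17 and 0.22 in female IS21FE pools and of 0.74, 0.097 and 0.13 in female IS21SE pools. Male IS21FE pools had 0.17, 0.055 and 0.17, and male IS21SE pools had 0.31, 0.18 and 0.26. Female IS21SE replicate 1 stood far above the other 11, and the groups overlapped. The mean was 0.23 ± 0.18 (SD, n = 12), a fold of 1.18. Arrays were positive in 10 of 12 cases with the treated RNA in Cy5 (mean 0.36) and in 8 of 12 with the control RNA in Cy5 (mean 0.11), and both arrays were positive in 6 of 12 replicates. The replicate at 0.74 was high on both of its arrays, at 0.85 and 0.64. Its mean was 0.17 ± 0.25 when the 3 similar arrays were left out.

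SPMI, named as a sperm motility inhibitor of boar seminal plasma, is a spermadhesin. Its 1 probe had ratios of 0.22, 0.018 and 0.29 in female IS21FE pools and of 0.47, 0.012 and 0.33 in female IS21SE pools. Male IS21FE pools had 0.16, 0.13 and 0.050, and male IS21SE pools had 0.13, 0.26 and 0.36. Both female groups held a replicate near 0, and the groups overlapped. The mean was 0.20 ± 0.14 (SD, n = 12), a fold of 1.15. By orientation, 11 of 12 arrays were positive with the treated RNA in Cy5 and 9 of 12 with the control RNA in Cy5, with means of 0.19 and 0.21. The near-equal means join opposite orders in the sexes: female pools had 0.11 and 0.33 in that order, and male pools 0.28 and 0.092. Without the 3 similar arrays the mean was 0.21 ± 0.20, but 1 replicate then changed sign. The symbol is kept as the platform gives it, since the accession of its probe was not in the reference table used. Spermadhesins are close paralogs, and signal from another of them in this probe was not tested.

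PARM1 is a mucin-like transmembrane protein first described as androgen-regulated in prostate. Its 1 probe had ratios of -0.022, -0.22 and -0.063 in female IS21FE pools and of -0.22, -0.093 and -0.13 in female IS21SE pools. Male IS21FE pools had -0.35, -0.35 and -0.067, and male IS21SE pools had -0.086, -0.064 and -0.10. The lowest pair of replicates was in male IS21FE, the third replicate of that group lay near 0, and the groups overlapped. The mean was -0.15 ± 0.11 (SD, n = 12), a fold of 0.903. PARM1 mirrored the positive genes in orientation: 12 of 12 control-in-Cy5 arrays were negative after the turn (mean -0.21) and 7 of 12 treated-in-Cy5 arrays (mean -0.086), of which 2 of 6 were female. Leaving the 3 similar arrays out gave a mean of -0.19 ± 0.10. All 12 replicates stayed negative, which was fixed in advance because all 12 control-in-Cy5 arrays were negative. With each array divided by its SD, PARM1 lost the shared sign.

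SRI, sorcin, is a penta-EF-hand protein that binds calcium and acts on ryanodine receptors, the calcium release channels of muscle. Female IS21FE pools had ratios of -0.059, -0.11 and -0.096, and female IS21SE pools had -0.019, -0.070 and -0.10. Male IS21FE pools had -0.33, -0.20 and -0.71, and male IS21SE pools had -0.19, -0.17 and -0.011. All 3 male IS21FE replicates lay below the other 9, and the female replicates lay close together. The mean was -0.17 ± 0.19 (SD, n = 12), a fold of 0.887. One of its 2 probes was measured on all 24 arrays, with a mean of -0.13 and 11 of 12 negative replicates. The other was measured on 22 arrays, with a mean of -0.22 and 8 of 10 negative replicates, and reached -1.34 in male IS21FE replicate 3. That value of a single probe stands behind the lowest replicate of the gene, because the first probe was lowest in male IS21FE replicate 1, at -0.33. The 2 arrays of male IS21FE replicate 3 also differed for the gene. Its ratio was -0.080 with the treated RNA in Cy5 and -1.34 with the control RNA in Cy5. Whether SRI met the rule depended on the arrays and probes kept: it lost the shared sign when either array was accepted, and when probes had to be measured in all 12 replicates. Its orientations agreed most often of the 8, with 21 of 24 arrays negative and both arrays negative in 9 of 12 replicates. Without the 3 similar arrays the mean was -0.18 ± 0.19. All 12 replicates stayed negative, which was fixed in advance because 12 of 12 control-in-Cy5 arrays were negative after the turn.

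**Figure D3:**
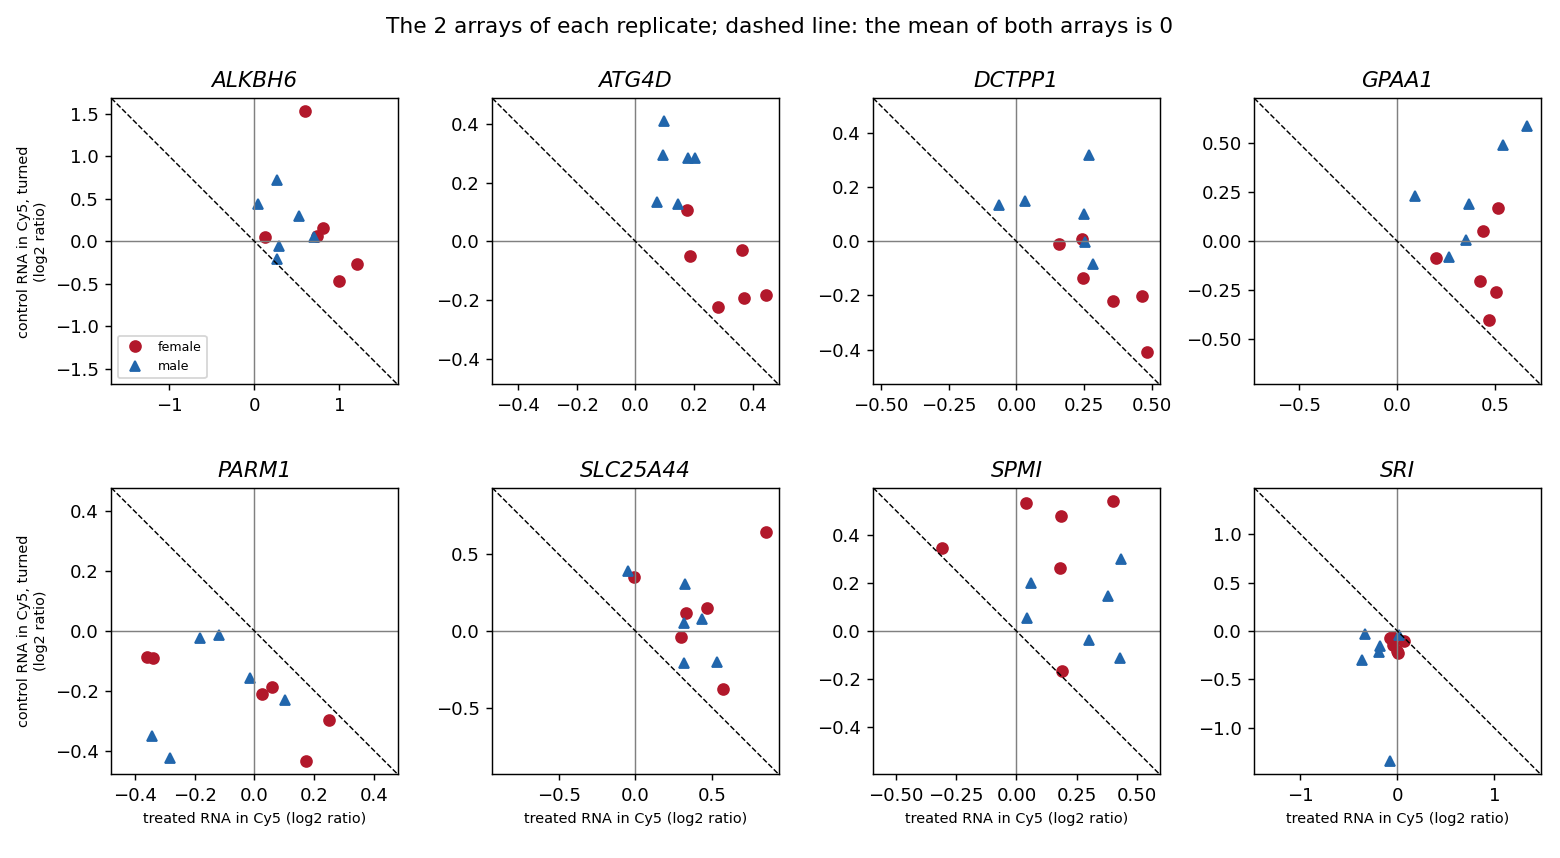
Log2 ratio on the array with the treated RNA in Cy5 (x axis) against the turned ratio on the array with the control RNA in Cy5 (y axis) for each replicate; circles are female and triangles male pools, and on the dashed line the mean of both arrays is 0. Points of ATG4D, DCTPP1 and GPAA1 from female pools lie mostly at the lower right, where only the treated-in-Cy5 array is positive, while the male points of ATG4D and GPAA1 lie mostly at the upper right.

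Orientation agreement separated the members from each other. Over the 24 arrays the member's sign was found on 16 (DCTPP1) to 21 (SRI), beside a median of 14 over all 6529 genes. Both arrays of a replicate carried it in 4 (DCTPP1) to 9 (SRI) of 12 replicates, beside a median of 4 and a range from 0 to 10 over all genes. ALKBH6 and SPMI had 8 such replicates, ATG4D, GPAA1 and PARM1 had 7, and SLC25A44 had 6. The rule needs the mean of both arrays to share a sign, so these counts are not free of it. With the treated RNA in Cy5 alone, 3 of the 8 genes (ALKBH6, ATG4D and GPAA1) had the same sign in 12 of 12 replicates. Of all genes measured so, 200 of 7909 (2.53%) did. On the opposite orientation 2 members (PARM1 and SRI) kept a sign, beside 115 of 7004 genes (1.64%). If the female arrays were not turned and the male arrays were, ATG4D, DCTPP1 and GPAA1 still met the rule, among 90 of 6529 genes (1.38%) that did. The male values there are those that the rule used, so the male signs of the members were fixed in advance. The numbers of members in these 3 settings are therefore not free of the rule and cannot be weighed against the shares of all genes.

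**Figure D4:**
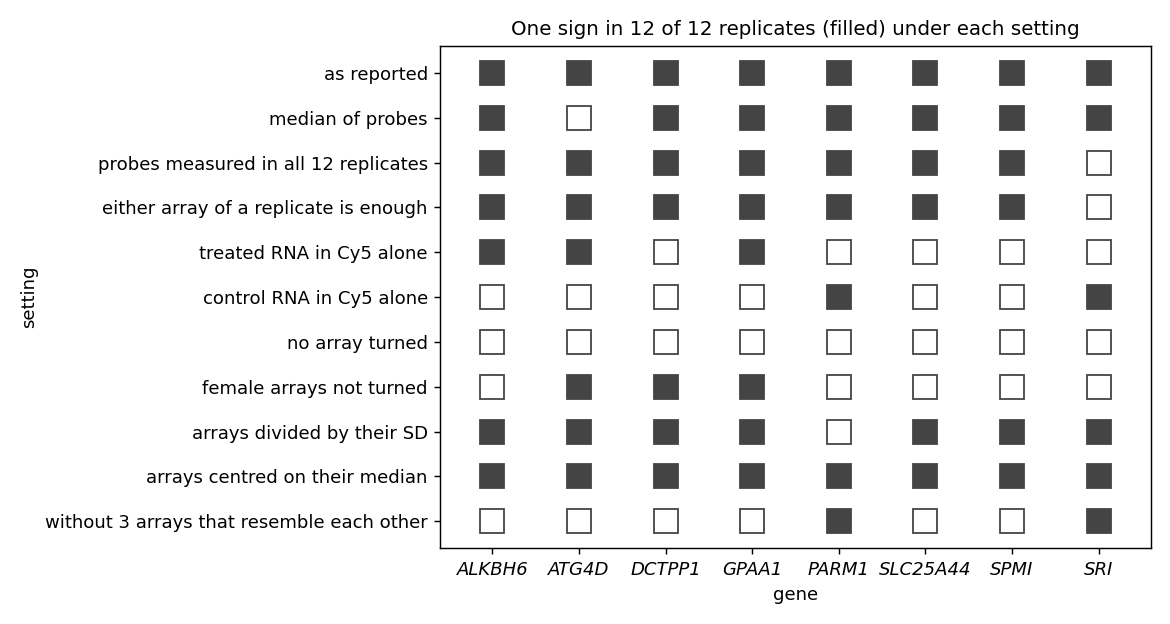
For each setting (y axis) a filled square marks the members (x axis) that had the same sign in all 12 replicates. No gene of the 8 is filled in every row: each loses the sign when no array is turned, and 2 of the 8, PARM1 and SRI, keep it without the 3 similar arrays. That row uses the control-in-Cy5 array alone for 3 replicates, and PARM1 and SRI were negative on every such array after the turn.

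The sum of the 2 arrays of a replicate, unlike their difference, was not used to choose the genes. Averaged as deposited, the 2 arrays give the part of the ratio that stays with the dye and not with the RNA, if the dyes were exchanged as labelled. For female pairs the exchange is less certain, and their average could then hold the difference between the pools. The name dye effect is used below under that limit. Across all genes this dye effect was large: limma called 1637 of 8463 genes (19.3%) at an adjusted p of 0.05, 725 of them positive (8.57%). Of the 8 members 2 were called, both positive. With 8 genes this count is too small to set against the 19.3% called in either direction or the 8.57% called positive. GPAA1 had a dye effect of 0.17 (SE 0.039, 95% interval 0.084 to 0.26, limma adjusted p = 0.0150), and DCTPP1 had 0.14 (95% interval 0.043 to 0.23, limma adjusted p = 0.0469). The call of GPAA1 was lost with the median of its probes (0.11, limma adjusted p = 0.0571) and without the 3 similar arrays (0.13, 0.112). That of DCTPP1 was lost without the 3 similar arrays (0.098, limma adjusted p = 0.277), with the replicate number as a block (0.0830) and in 9 of 12 fits that left out a replicate (0.0548 to 0.0964). The dye effect of DCTPP1 was larger than its mean ratio of 0.11. For the other 6 members the adjusted p in limma was 0.161 or more, with estimates from -0.0082 for SPMI to 0.18 for ALKBH6.

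The dye effect also differed between the sexes on the array as a whole. A dye effect that depends on sex and female arrays without an exchange of dyes cannot be told apart here. In a comparison added after the data were seen, limma called 427 of 8463 genes (5.05%) for the difference of the dye effect between male and female arrays, and none of the 8 members. ATG4D came nearest: its dye effect was 0.20 ± 0.11 (SD) on female pairs and -0.061 ± 0.058 on male pairs, without overlap, a difference of -0.26 (95% interval -0.42 to -0.10, limma adjusted p = 0.0591). It passed with array weights (limma adjusted p = 0.0383), among genes measured in all 12 replicates (0.0397), with arrays divided by their SD (0.0468) and without female IS21FE replicate 2 (0.0318). DCTPP1, GPAA1 and SPMI also had an unadjusted p under 0.05, with limma adjusted p from 0.155 to 0.208. The female estimates were 0.24 for DCTPP1, 0.27 for GPAA1 and -0.11 for SPMI, and the male ones were 0.034, 0.070 and 0.092. Whether the dye effect has a part in the shared sign of a member was not tested.

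The difference between male and female pools asked whether the ratios of the members depend on the sex of the embryos. No member passed in limma (adjusted p from 0.541 to 0.916), and the replicates of both sexes overlapped for all 8. The same fit called 0 of 8463 genes (0%), with 874 at an unadjusted p under 0.05. SRI had the lowest p: its mean was -0.27 ± 0.24 in male and -0.076 ± 0.035 in female pools (SD, n = 6 each), a difference of -0.19 with a 95% interval from -0.41 to 0.029 (limma adjusted p = 0.541), and of -0.12 without male IS21FE replicate 3. GPAA1 had 0.31 in male and 0.15 in female pools, a difference of 0.16 with an interval from -0.053 to 0.37. ALKBH6 had 0.28 in male and 0.46 in female pools, a difference of -0.19 with an interval from -0.50 to 0.13, and of -0.080 without female IS21FE replicate 2. A p that misses the threshold does not show that the sexes were alike.

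The difference between the strategies IS21SE and IS21FE gave no call either (0 of 8463 genes, 0%, with 475 at an unadjusted p under 0.05). The adjusted p of the members in limma ran from 0.907 to 0.982. Female and male pools of a strategy came from the same 3 sows, and the fit took them as independent. SRI had -0.093 ± 0.074 under IS21SE and -0.25 ± 0.25 under IS21FE (SD, n = 6 each), a difference of 0.16 with a 95% interval from -0.063 to 0.38. Without male IS21FE replicate 3, where a single probe stood at -1.34, the difference was 0.085. GPAA1 had 0.30 and 0.16, a difference of 0.14 with an interval from -0.069 to 0.35. The estimate was positive for 7 of the 8 members, beside 51.9% of all genes, and every interval of the members included 0. For PARM1 and SRI a positive estimate is a less negative ratio under IS21SE, so the 7 do not share a direction of the ratio. ALKBH6 was negative, at -0.12 with an interval from -0.44 to 0.19, and at -0.016 without female IS21FE replicate 2.

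**Figure D5:**
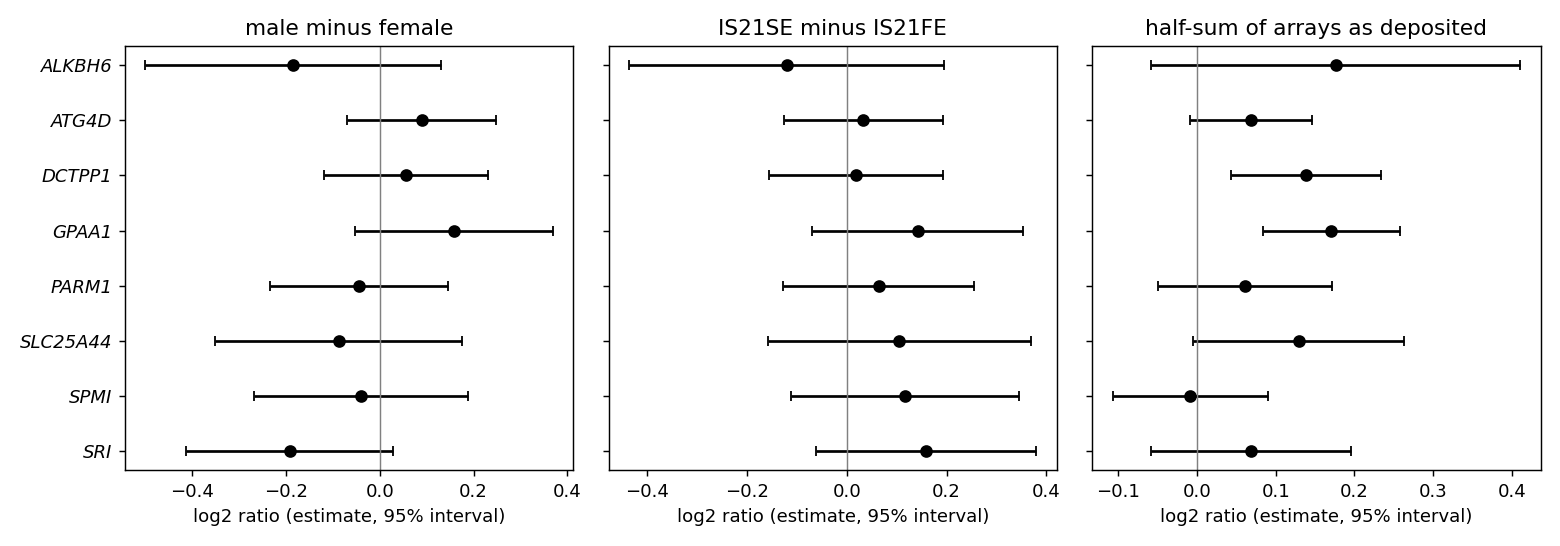
Estimates (points) with 95% intervals from limma for the difference between sexes, the difference between strategies and the dye effect (x axes, log2 ratio) of each member (y axis). All intervals of the first 2 panels include 0, and in the third panel those of GPAA1 and DCTPP1 do not.

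Genes just outside the rule reached both smaller and larger absolute means than the members, but they were far more numerous, which widens a range. The 118 genes with 11 of 12 replicates of a sign, 83 positive and 35 negative, had absolute means from 0.058 to 0.69 with a median of 0.20. The largest was FBXL7, an F-box protein, with 0.69 ± 0.80 and an exception of -1.02 in male IS21SE replicate 3. Symbols that start with LOC left out, UBN2 followed with 0.48 (exception -0.53), then TUBA4A, an alpha-tubulin, with -0.47 (0.077). After them came MSH3, a mismatch repair protein, with -0.46 (0.47), and MARCO, a scavenger receptor of macrophages, with 0.46 (-0.29). Inside the rule, the replicates nearest to 0 were at -0.011 for SRI and 0.012 for SPMI. Of the 3 genes that met it and are not described above, BMP8A had 0.36 ± 0.22 with the sign on 22 of 24 arrays, more than any member, LOC100625691 had 0.32 ± 0.21 and RPL35 had 0.092 ± 0.12.

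The members did not vary together as a group. Over the 28 pairs of members, Pearson's r of the ratios across 12 replicates ran from -0.26 to 0.68 with a median of 0.17, as a description of replicates that share their array scale by sex. The highest were ATG4D with GPAA1 (0.68) and SLC25A44 with SPMI (0.64). Symbols that start with LOC were left out of the search for like profiles. Among the other genes measured in 12 replicates, the profile most like that of PARM1 was LPAR1, a lysophosphatidic acid receptor (r = 0.97), and then TMEM183A (0.92). ATG4D was closest to SH2D3C (0.93) and ZDHHC12 (0.87), and SLC25A44 to MBD2 (0.93) and EPHX1 (0.90). For SRI these were ATP6V1C1 (0.91) and USO1 (0.91), for SPMI EHD1 (0.89) and C2H19orf66 (0.87), and for GPAA1 TXN2 (0.88) and FCGRT (0.88). ALKBH6 was closest to PIGQ (0.86) and PSORS1C2 (0.85), and DCTPP1 to SHPRH (0.85) and RPL35 (0.84). A likeness of profile says nothing of the sign: LPAR1 had a positive mean of 0.15 where PARM1 had a negative one.

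Relatives of the members were set beside them by the mean over 12 replicates, in which limma called 0 of 8463 genes (0%), with 977 at an unadjusted p under 0.05. Over all genes the median was 0.013 and 54.4% were positive. The lists leave the members themselves out. All 5 of the other AlkB family genes tested were positive, with a median of 0.057, and ALKBH4 had the largest mean, 0.18 ± 0.20 with 8 of 12 replicates positive. ALKBH2 (0.12) was positive in 8 and ALKBH7 (0.057) in 10 of 12 replicates. ALKBH1 (0.015) and FTO (0.016) lay near the median of all genes, each positive in 6 of 12. Of 22 ATG4 proteases, ATG8 proteins and conjugation factors 11 were positive and 11 negative, with a median of 0.015. ATG9A, the lipid scramblase of the forming autophagosome, was largest at 0.25 ± 0.35. Of 14 enzymes of the deoxynucleotide pool 9 were positive, with a median of 0.042, and the Nudix hydrolase NUDT16 was largest at -0.20 ± 0.27 (n = 11).

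Of 20 genes of GPI anchor synthesis and attachment 11 were positive, with a median of 0.031. PGAP1, the inositol deacylase that acts on the anchor after attachment, had the largest mean, 0.33 ± 0.24, positive in 11 of 12 replicates (limma adjusted p = 0.286). The other transamidase subunits measured, named after their values were seen, were smaller than GPAA1: PIGS had 0.10 ± 0.12, PIGU 0.11 ± 0.18 and PIGT -0.018 ± 0.27. Of 16 genes of branched-chain amino acid transport and breakdown 12 were positive, with a median of 0.057, led by HIBADH, the 3-hydroxyisobutyrate dehydrogenase of valine breakdown, at 0.23 ± 0.28. Among 25 other mitochondrial carriers 16 were positive, with a median of 0.017, and SLC25A46 had -0.32 ± 0.35 (n = 10). Of 4 cell surface mucins 2 were positive, with a median of 0.0068, and endomucin, EMCN, had 0.068 ± 0.20. Of 14 penta-EF-hand and calcium handling genes 7 were positive, with a median of 0.0088, and the muscle calpain CAPN3 had the largest absolute mean, -0.22 ± 0.66. RYR1, a ryanodine receptor named after its value was seen, had -0.20 ± 0.26, negative in 10 of 12 replicates.

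The relatives of SPMI had the largest median of these lists. Of 4 further spermadhesins and seminal plasma proteins tested 3 were positive, with a median of 0.40, and none passed the test. The spermadhesins, named after their values were seen, were AWN with 0.36 ± 0.32 and PSP-II with 0.44 ± 0.38, each positive in 10 of 12 replicates and each larger and more variable than SPMI. By group, AWN had 0.24 in both female groups, 0.52 in male IS21FE and 0.43 in male IS21SE pools, and PSP-II had 0.28, 0.44, 0.53 and 0.49 in that same order of female IS21FE, female IS21SE, male IS21FE and male IS21SE. Their replicates did not follow those of SPMI closely (Pearson's r over 12 replicates 0.12 for AWN and 0.28 for PSP-II). PSP-I was measured in 8 replicates and was not tested, with values from -1.12 to 1.62. SAL1, salivary lipocalin, had 0.74 ± 1.25 with 7 of 12 replicates positive, and MSMB, microseminoprotein beta, had -0.028 ± 0.081.

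Markers of tissues that an embryo pool could hold in varying amounts took both signs over the 12 replicates. The median ratio of 13 fetal liver genes ran from -0.39 to 0.67 over the 12 replicates and was positive in 8, and that of 10 erythroid genes ran from -0.22 to 0.39 and was positive in 8. For 4 trophoblast genes the range was -0.36 to 0.23 with 9 positive, and for 5 endometrial genes, which include SAL1, it was -0.36 to 0.97 with 6 positive. On the mean over 12 replicates 12 of 13 liver genes were positive (median 0.15, hemopexin, HPX, 0.42 ± 0.40), as were 7 of 11 erythroid genes (median 0.094, the transferrin receptor TFRC 0.28 ± 0.32). Endometrial genes were positive in 5 of 6 cases (median 0.22) and trophoblast genes in 3 of 5 (median 0.0048, ELF5 -0.17 ± 0.64, n = 10). No marker passed the test, and the part of these tissues in the ratios of the members was not tested.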

How the data were processed

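The deposited table held a log ratio for each of 43749 probes on 24 arrays, taken here as log2 because values from -9.34 to 9.85 are too wide for log10. The authors' log base, ratio direction, normalisation and background correction were not given in the sources used here. Labelling used 200 ng of RNA, per the labels' protocols. Symbols came from the platform annotation, updated by accession or synonym, for 18109 probes. The 8 genes and the 13 gene lists were chosen with earlier results of these data known. A replicate needed both arrays, since the sign rule averages them; accepting either array was the alternative. limma 3.58.1 in R 4.3.3 fitted 4 group means (eBayes, at least 2 replicates per group, Benjamini-Hochberg over all genes, threshold 0.05) and was checked on simulated data. No fit had a term for the sow, though each sow gave a female and a male pool. Named genes were the members, the 5 largest with 11 of 12 replicates of a sign, the 2 most alike per member and the largest per list. Symbols that start with LOC were left out of the 5 largest and of the most alike. The labels number replicates 1 to 3; same-numbered female and male pools correlated in their deviations at -0.039 to 0.19, over 0.1 for 1 of 6, so numbers were not taken as pairs. Blank values (16.6%) were left out.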

Additional observations from a re-analysis of the deposited data

How the results depend on the processing

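The 8 genes, chosen on all 12 replicates, keep their sign in any 11 by construction. Genes with the same sign in 11 numbered 14 to 33 when a replicate was left out. The same sign in all 12 was found for 18 of 9499 genes with either array accepted. It was found for 200 of 7909 with the treated RNA in Cy5 alone and 115 of 7004 with the control RNA in Cy5 alone. With no array turned it was 349 of 6529, and with female arrays not turned 90 of 6529. Without the 3 similar arrays it was 6 of 6634 genes, and among single probes 47 of 18481. Of the 8 members 3, 2, 0, 3 and 2 kept the sign with treated in Cy5 alone, control in Cy5 alone, no array turned, female arrays not turned and without the 3 similar arrays. The last 2, PARM1 and SRI, had to keep it, as all their control-in-Cy5 arrays were negative after the turn. With female arrays not turned, the male signs of the members were fixed in advance. With either array accepted or probes in all 12 replicates SRI was lost, with the median of probes ATG4D, and with arrays divided by their SD PARM1. The mean over 12 replicates called 295 genes with treated in Cy5 alone (4 of them in the lists), 315 with control in Cy5 alone (7 in the lists), where dye effects stay in the ratio, and 0 to 1 without a replicate (PPP2R5B without male IS21FE replicate 1, CENPA without replicate 3). With control in Cy5 alone the sex difference called 105 genes and the strategy difference 1. The dye effect called 886 genes without the 3 arrays, 6009 single probes, and 1209 to 1624 genes without a replicate. Its difference by sex called 746 genes with arrays divided by their SD, 116 without the 3 arrays, 2467 single probes, and 79 to 427 genes without a replicate. The replicate block gave 0, 0 and 0 calls for the mean, sex and strategy, 1259 for the dye effect and 40 for its difference by sex; it passed no member in the first 3, and lost DCTPP1 in the dye effect (limma adjusted p = 0.0830).

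Values that reversed were as follows. The mean of DCTPP1 was -0.029 with control in Cy5 alone. With no array turned PARM1 was 0.061, SPMI -0.0082 and SRI 0.069. Those values are the dye effect of these genes and no longer a ratio between treated and control pools, if the dyes were exchanged as labelled. The sex difference was -0.17 for ATG4D, -0.15 for DCTPP1, -0.045 for GPAA1 and 0.16 for SPMI with treated in Cy5 alone. It was 0.028 for ALKBH6 and 0.018 for PARM1 with control in Cy5 alone, -0.0024 for DCTPP1 with arrays divided by their SD, and 0.12 for ALKBH6, 0.041 for PARM1 and 0.035 for SLC25A44 without the 3 arrays. Without a replicate it ran from -0.14 to 0.018 for SLC25A44 and from -0.10 to 0.010 for SPMI, both positive without female IS21SE replicate 1. The strategy difference of DCTPP1 was -0.054 with treated in Cy5 alone, -0.011 with arrays divided by their SD, and -0.016 to 0.049 without a replicate. The dye effect was -0.037 for ALKBH6 without the 3 arrays, 0.0011 for SPMI with array weights and -0.032 to 0.011 for SPMI without a replicate. Its difference by sex without the 3 arrays was 0.21 for ALKBH6, 0.053 for PARM1, 0.14 for SLC25A44 and -0.029 for SRI. For SLC25A44 it was 0.012 with array weights, 0.036 with centred arrays and -0.074 to 0.072 without a replicate. For SRI it was -0.022 with array weights, -0.016 with arrays divided by their SD and -0.088 to 0.079 without a replicate. Except where the construction is named, the cause was not tested. In all, 167 of 176 alternative values of the members' means were counted as unchanged, 5 moved in size and 4 reversed. Counted as unchanged does not mean alike in size. GPAA1 was so counted at 0.059 with control in Cy5 alone, beside 0.23 as reported. PARM1 was so counted at -0.038 with female arrays not turned, beside -0.15. All the reversed means but that of DCTPP1 came with no array turned, where the value is the dye effect. Part of the count of unchanged values was fixed in advance. Leaving out a replicate could not change the sign of a mean, and the median of probes equals the mean for genes with a single probe. Direction and call were kept by 172 of 184 values of the sex difference and 181 of 184 of the strategy difference. The same held for 140 of 160 values of the dye effect and 142 of 160 of its difference by sex. Of the dye effect 13 fell short of the threshold (11 of DCTPP1, 2 of GPAA1) and 1 newly passed (SLC25A44 without male IS21FE replicate 3, limma adjusted p = 0.0430), and of its difference by sex 4 newly passed, all of ATG4D. Signal over background was not used here.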
